A study of Mus musculus with 16 samples.

Results

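The levels of 10 autophagy and lysosome transcripts were compared in dexamethasone-treated muscle with and without LSD1. The genes were taken by name from the gene rows of both deposited count tables, which hold 24421 genes each, and all 10 of 10 were found: *Map1lc3a*, *Map1lc3b*, *Gabarap*, *Gabarapl1*, *Gabarapl2*, *Sqstm1*, *Bnip3*, *Ulk1*, *Ctsl* and *Tfeb*. RNA-seq had been done on gastrocnemius (Gas), a fast-fiber muscle, and soleus (Sol), a slow-fiber muscle, from male mice labeled C57BL/6 and treated from 8 weeks of age. WT mice carried floxed *Lsd1* without CreERT2 (n = 3 per muscle). LSD1-mKO mice were Lsd1flox/flox with Tg ACTA1-CreERT2, in which the human skeletal actin promoter drives a tamoxifen-activated recombinase in muscle fibers, so other cells of the tissue kept the gene (n = 5 per muscle). Both genotypes received tamoxifen at 75 mg/kg for 5 days and dexamethasone, a synthetic glucocorticoid, at 1 mg/kg for 7 days starting on the fourth tamoxifen day, and were fasted for some hours before the muscles were taken. No muscle without dexamethasone was in the series, so every value below describes treated and fasted muscle. The labels do not tie a Gas to a Sol library of the same mouse, and the muscles were counted in separate runs, so muscle and counting run cannot be told apart.

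Autophagy encloses cell contents in a membrane of paired layers and delivers them to the lysosome. The ULK1 kinase starts the process, proteins of the LC3 family (*Map1lc3a*, *Map1lc3b*) and the GABARAP family (*Gabarap*, *Gabarapl1*, *Gabarapl2*) are attached to the growing membrane, and receptors such as p62 (*Sqstm1*) and BNIP3 tie cargo or mitochondria to them. Cathepsin L (*Ctsl*) then degrades proteins in the lysosome, and TFEB is a transcription factor for lysosome and autophagy genes. In skeletal muscle, fasting, denervation and glucocorticoids are known to raise several of these transcripts, partly through FoxO factors, and *Gabarapl1*, *Bnip3* and *Ctsl* are counted among the genes of muscle wasting. These are transcript levels and do not measure autophagic flux.

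The libraries held 10130415 to 24576377 reads assigned to genes. *Kdm1a*, which encodes LSD1, stood at 37.2 to 48.2 reads per 1e6 assigned reads (CPM) in WT Gas and 12 to 17.7 CPM in LSD1-mKO Gas, and at 33.4 to 34.9 CPM in WT Sol and 9.13 to 12.9 CPM in LSD1-mKO Sol. It fell in both muscles (the log2 fold change was −1.56 in Gas with an adjusted p of 0.0177 and −1.66 in Sol with an adjusted p of 0.000574, by edgeR's quasi-likelihood test with Benjamini-Hochberg adjustment, the test used throughout). CPM are scaled by TMM factors over all 16 libraries, and a log2 fold change is given with its standard error (SE). The fiber types followed the labels: 5 of 6 fast-fiber genes were higher and 6 of 6 slow-fiber genes lower in Gas than in Sol in each genotype, for example *Myh4* and *Myh7*. Of the Gas libraries, WT replicate 3 and LSD1-mKO replicate 3 stood apart. WT replicate 3 was the highest of 8 for 30% and the lowest for 31.1% of the 13040 genes tested in Gas, and LSD1-mKO replicate 3 for 19.2% and 17.3%. The same pair had the highest summed level of 7 neutrophil markers in Gas (52.4 and 141 CPM, against 2.31 to 11.6 CPM in the other 6), and WT replicate 3 also had the highest adipocyte sum (1930 CPM, against 516 to 702 CPM) and the highest mean level of the ribosomal protein genes (8.71 on the log2 CPM scale, against 7.14 to 7.97).

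Promoters, read from RefSeq on GRCm38.p6 from 250 bases before to 50 bases after the start of transcription, were found for 9 of the 10 genes. Shown are the 3 that held a match to a searched motif, among them those of *Gabarapl1* and *Ctsl*, whose levels varied most between libraries of Gas together with *Ulk1*. Capitals mark the match.
Gabarapl1 promoter, chr6:129532942-129533241, plus strand, ATAAACA in capitals: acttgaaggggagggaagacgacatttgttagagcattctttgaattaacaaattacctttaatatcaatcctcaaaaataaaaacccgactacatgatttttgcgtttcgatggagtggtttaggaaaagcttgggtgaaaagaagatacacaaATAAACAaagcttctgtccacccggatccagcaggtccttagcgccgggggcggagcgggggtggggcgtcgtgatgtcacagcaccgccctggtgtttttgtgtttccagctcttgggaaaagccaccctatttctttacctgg
Bnip3 promoter, chr7:138909457-138909756, minus strand, CACGTG in capitals: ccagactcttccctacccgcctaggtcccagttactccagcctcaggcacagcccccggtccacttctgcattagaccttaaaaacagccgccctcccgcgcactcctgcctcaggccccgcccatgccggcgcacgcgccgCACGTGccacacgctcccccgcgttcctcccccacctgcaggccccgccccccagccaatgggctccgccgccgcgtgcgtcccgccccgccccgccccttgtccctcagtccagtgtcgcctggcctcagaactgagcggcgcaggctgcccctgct
Ctsl promoter, chr13:64370471-64370770, minus strand, CACGTG in capitals: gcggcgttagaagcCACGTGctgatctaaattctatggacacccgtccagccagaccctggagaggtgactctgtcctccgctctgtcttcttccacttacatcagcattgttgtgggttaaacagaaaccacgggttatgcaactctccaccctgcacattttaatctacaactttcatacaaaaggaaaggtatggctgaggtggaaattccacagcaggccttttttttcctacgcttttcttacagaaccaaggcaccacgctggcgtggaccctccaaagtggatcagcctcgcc

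These motifs were searched on both strands in these windows and in all 32851 RefSeq promoter windows. The forkhead motif GTAAACA was in no window of these genes (3.65% of all windows hold it), and the variant ATAAACA, added after that, was in *Gabarapl1* 95 bases before the start (4.6% of all windows). The E-box CACGTG, the core of the longer TFEB site, was in *Bnip3* 108 bases and in *Ctsl* 236 bases before the RefSeq start (7.15%). GENCODE M21 starts *Ctsl* further upstream, at chr13:64370890, so by that annotation the whole *Ctsl* window and its match lie inside the gene. Most of the *Gabarap* window also lies inside the gene by GENCODE, which starts it at chr11:69991143. The TFEB site TCACGTGA (0.97%), the palindromic element of the glucocorticoid receptor (0.01%) and its single arm AGAACA (18.97%), which the palindrome contains, were in none of them. A match is only a description of the letters, and these windows leave out distant elements.

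In Gas, *Gabarapl1* was the member that differed most between the genotypes with all 8 libraries in the fit. Its level was 140.3, 167 and 63.5 CPM in WT replicates 1 to 3, and 178, 220.2, 808, 187 and 200.2 CPM in LSD1-mKO replicates 1 to 5. All 5 LSD1-mKO libraries lay above all 3 WT libraries, LSD1-mKO replicate 3 lay far above the other LSD1-mKO libraries, and WT replicate 3 lay below the other WT libraries. Of all 13040 genes, 6.95% did not overlap between the genotypes in Gas, in either direction. The log2 fold change was 1.36 (SE 0.569), a 2.56-fold difference, with an unadjusted p of 0.0376 and an adjusted p of 0.541, so it did not pass the test (edgeR). With both libraries numbered 3 left out, it was 0.35 (adjusted p = 0.643), and with only LSD1-mKO replicate 3 left out it was 0.67. Without both, *Ctsl* (0.39) and *Tfeb* (−0.37) differed by more. The remaining 4 LSD1-mKO libraries, at 178 to 220.2 CPM, still lay above the WT libraries, the nearest of which was at 167 CPM.

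**Figure D1:**
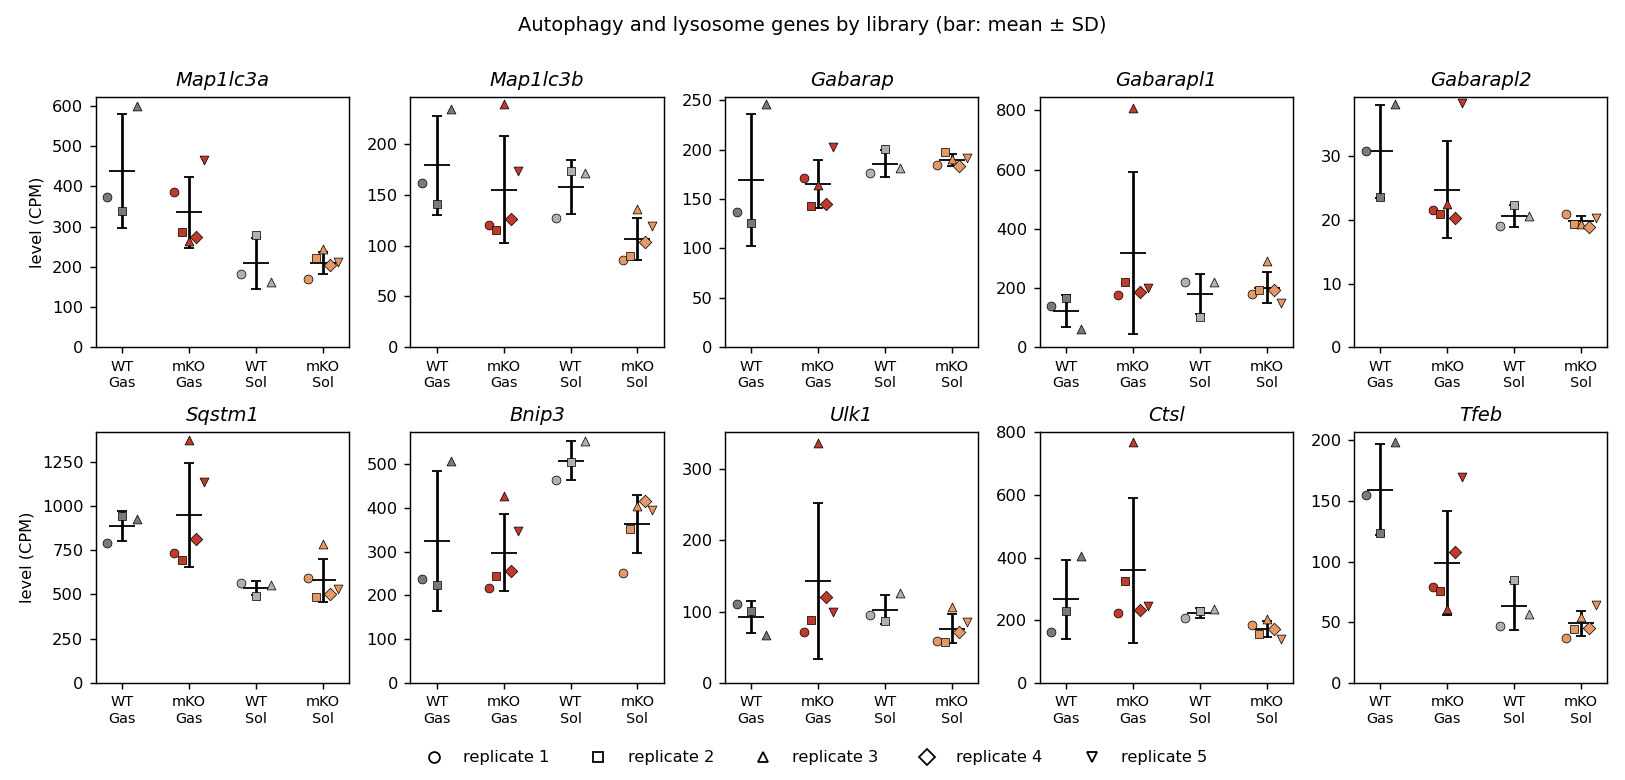
Level of each gene in every library, in CPM on a linear axis from 0, by group (mKO stands for LSD1-mKO). Symbols mark the replicate number, and black bars give the mean and SD. LSD1-mKO Gas replicate 3 (red triangle) is far above the rest for Gabarapl1, Ulk1 and Ctsl.

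The other 4 LC3 and GABARAP genes overlapped between the genotypes in Gas. *Map1lc3a* was at 375, 339 and 601 CPM in WT and at 387, 286, 265, 273 and 466 CPM in LSD1-mKO (log2 fold change −0.38, SE 0.266). WT replicate 3 was its highest library and LSD1-mKO replicate 3 its lowest, the reverse of *Gabarapl1*, and the value was −0.08 without WT replicate 3 and −0.02 without both. *Map1lc3b*, the LC3 form most used as a marker of autophagosomes, was at 141 to 234 CPM in WT and 115 to 239 CPM in LSD1-mKO (−0.21, SE 0.279). *Gabarap* was at 126 to 246 CPM and 142 to 203 CPM (−0.03, SE 0.245), and *Gabarapl2* at 23.5 to 38.1 CPM and 20.3 to 38.3 CPM (−0.31, SE 0.251, and −0.10 without both libraries numbered 3). Adjusted p-values of these 4 genes ran from 0.622 to 0.964 (edgeR).

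The family's summed level overlapped between the genotypes in Gas, while its make-up moved in single libraries. Divided by exon length, which allows genes to be compared, the sum over the 5 genes was 677 ± 171 CPM per kb in WT Gas and 675 ± 165 CPM per kb in LSD1-mKO Gas (SD, n = 3 and 5). *Map1lc3a* held most of it in WT Gas, 54.5% to 61.9%, and *Gabarapl1* 4% to 16.4%. *Gabarapl1* held 48.7% and *Map1lc3a* 26.1% in the third LSD1-mKO Gas library, whereas in the other 4 LSD1-mKO Gas libraries *Gabarapl1* held 14.3% to 22.3%. In Sol the shares of *Map1lc3a* were 30.5% to 46.8% in WT and 35% to 40.2% in LSD1-mKO, and those of *Gabarapl1* 10.5% to 25.4% and 17.4% to 27.3%. WT Sol replicate 2 stood apart from the other WT Sol libraries, with the lowest *Gabarapl1* share of that muscle. *Gabarapl2* held 3.07% or less in every library. These shares depend on the exon lengths used and on which reads were counted: 17.47% of the 75-base windows of *Gabarapl1*, 13.35% of *Gabarapl2* and 10.86% of *Map1lc3b* also occur in transcripts of other genes, and reads from such stretches could be left out or split.

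**Figure D2:**
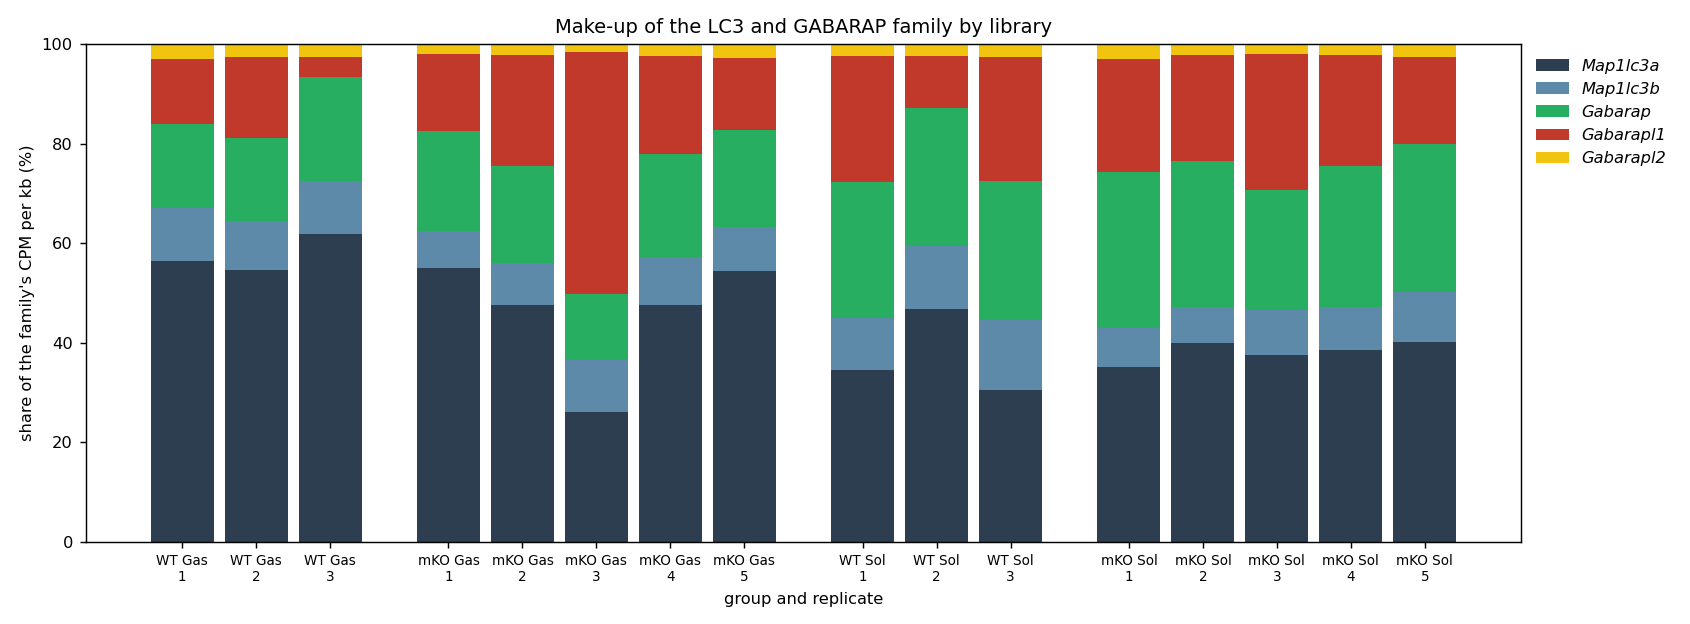
Share of each LC3 and GABARAP gene in the family's summed CPM per kb (percent, y axis) in each of the 16 libraries (x axis, group and replicate). Gabarapl1 (red) takes 48.7% in mKO Gas 3 and 4% in WT Gas 3.

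The receptors overlapped between the genotypes in Gas. *Sqstm1* was at 789, 940.2 and 929 CPM in WT and at 733, 697, 1372, 811 and 1136 CPM in LSD1-mKO, so LSD1-mKO replicates 3 and 5 were above every WT library and the other 3 were below the WT mean. The log2 fold change was 0.10 (SE 0.258, adjusted p = 0.892, edgeR). *Bnip3* was at 238, 224 and 509 CPM in WT and at 217, 244, 427, 256 and 348 CPM in LSD1-mKO (−0.11, SE 0.321, adjusted p = 0.901, edgeR). WT replicate 3 was its highest library, and without both libraries numbered 3 the value turned to 0.20. Of the exon bases of *Bnip3*, 28.7% overlap the gene model *Gm45507*, and of those of *Sqstm1*, 20.5% overlap *Mrnip*. The counting was not stated to use strand, so their levels are less certain than those of the other members.

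In *Ulk1* and *Ctsl*, LSD1-mKO Gas replicate 3 stood far above the rest. *Ulk1* was at 111, 100.4 and 67.5 CPM in WT and at 71, 88.4, 337, 120.5 and 99.3 CPM in LSD1-mKO. *Ctsl* was at 162, 229.6 and 406 CPM in WT and at 223, 326, 769, 232 and 245 CPM in LSD1-mKO. In both genes the other 4 LSD1-mKO libraries overlapped WT. The log2 fold change of *Ulk1* was 0.62 (SE 0.478, adjusted p = 0.648, edgeR), without LSD1-mKO replicate 3 it was 0.03, and without both libraries numbered 3 it was −0.16. That of *Ctsl* was 0.43 (SE 0.456, adjusted p = 0.726, edgeR), and without that library it was −0.04. Without WT replicate 3 that of *Ctsl* was 0.88, and without both it was 0.39 (adjusted p = 0.726, edgeR). LSD1-mKO replicate 3 was 4.18 times the median of the other 4 LSD1-mKO Gas libraries for *Gabarapl1*, 3.59 times for *Ulk1*, 3.22 times for *Ctsl*, 1.94 times for *Map1lc3b*, 1.78 times for *Sqstm1* and 1.71 times for *Bnip3*, but 0.655 times for *Tfeb* and 0.787 times for *Map1lc3a*.

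*Tfeb* was lower in most LSD1-mKO Gas libraries than in WT. It was at 155, 124 and 199 CPM in WT Gas and at 79.3, 75.4, 61.2, 108 and 169.7 CPM in LSD1-mKO Gas. Of the LSD1-mKO libraries, 4 lay below every WT library, and LSD1-mKO replicate 5 lay among the WT libraries. The log2 fold change was −0.69 (SE 0.317), with an unadjusted p of 0.0548 and an adjusted p of 0.555, and with both libraries numbered 3 left out it was −0.37 (adjusted p = 0.828, edgeR).

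Among the 10 genes, 0 passed an adjusted p of 0.05 in Gas, where 0.0307% of all genes tested did (4 of 13040). Only *Gabarapl1* of the 10 had an unadjusted p under 0.05, or 10% against 9.06% of all genes. DESeq2, edgeR's exact test and limma voom with quality weights also called 0 of the 10. The median log2 fold change was −0.07 over the 10 genes and 0.01 over all genes, with 4 values above and 6 below 0.

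Of 12 genes on a list of glucocorticoid responses, 0 passed between the genotypes in either muscle. Some genes known to respond to glucocorticoids stood beside the values of LSD1-mKO Gas replicate 3. Of the 12, 8 were highest in that library among the 5 LSD1-mKO Gas libraries, among them *Ddit4*, an inhibitor of mTORC1 signaling, at 840 CPM against 164 to 311 CPM in the other 4, and *Klf15* at 236 CPM against 81.3 to 120 CPM. Of the 8, *Fkbp5* (500 CPM), *Tsc22d3* (794 CPM) and *Klf9* (510 CPM) lay within the WT Gas range (369 to 518, 408 to 879 and 394 to 870 CPM). The library was the highest of all 8 Gas libraries for 19.2% of all genes tested, and its share among the 5 was not counted. *Sgk1* was lowest in that library among the 5, at 178 CPM against 218 to 408 CPM. All 7 neutrophil markers had reads in that library, as in replicate 2, whereas *Ngp*, *Camp* and *Mpo* were at 0 in LSD1-mKO Gas replicate 4. The macrophage sum of that library (273 CPM) lay within the range of the other LSD1-mKO Gas libraries (236 to 291 CPM). The part of drug response or of other cells in the values of LSD1-mKO Gas replicate 3 was not tested.

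**Figure D3:**
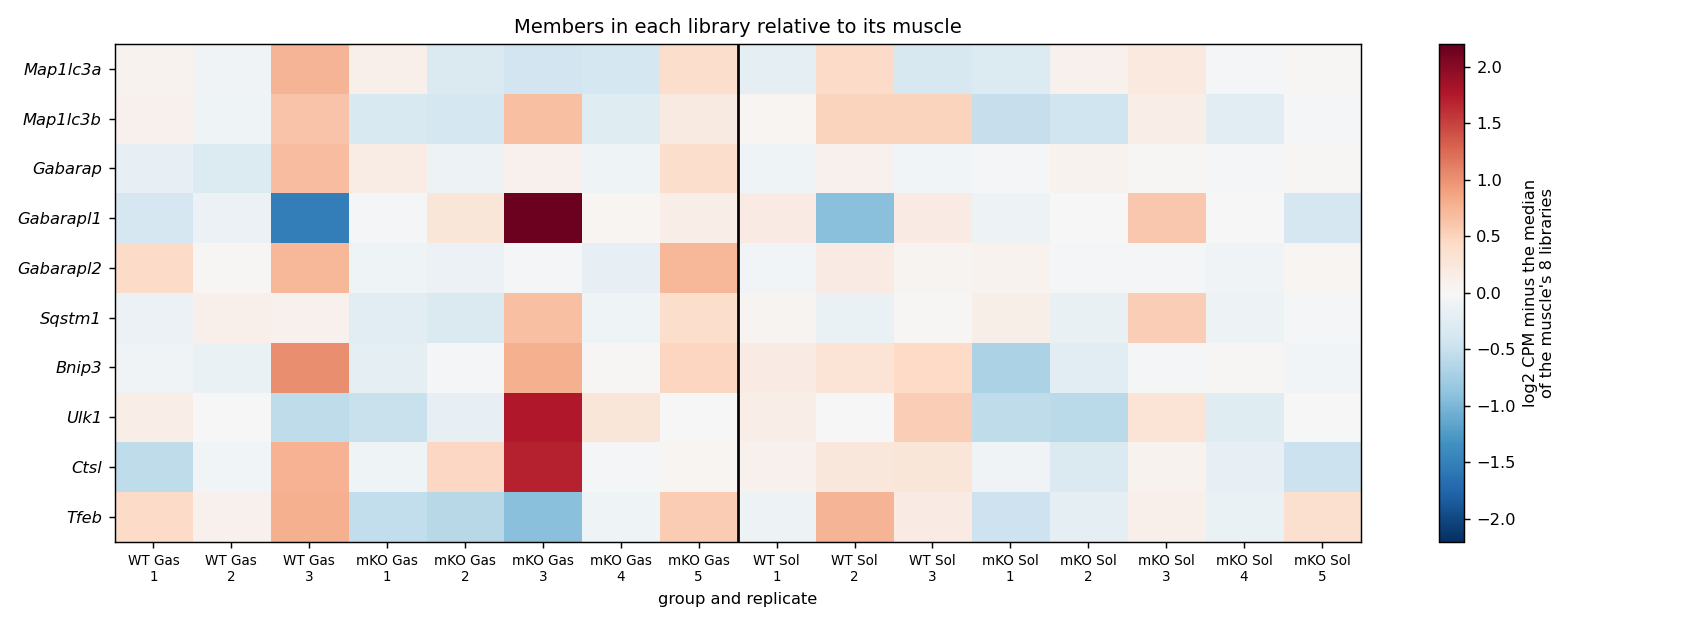
Log2 CPM of each gene in each library minus the median of the 8 libraries of its muscle (red above, blue below). In Gas, the columns of WT replicate 3 and LSD1-mKO replicate 3 are the strongest, with opposite signs for Map1lc3a, Gabarapl1, Ulk1 and Tfeb.

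In Sol the members were on balance lower in LSD1-mKO, without passing the test. The log2 fold changes of the 5 adipocyte markers were all below 0 there, with a median of −0.70, 3 at an unadjusted p under 0.05 and 0 called (edgeR). In Gas they were all below 0 as well, with a median of −0.44, 1 at an unadjusted p under 0.05 and 0 called (edgeR). In Sol their summed level was 549, 1190 and 679 CPM in WT and 407 to 605 CPM in LSD1-mKO. The median in Sol was 0.415 over 9 macrophage markers and 0.442 over 5 fibroblast markers, with 0 called. The part of these cells in the members' values in Sol was not tested. *Map1lc3b* was at 127, 173 and 172 CPM in WT and at 86.3, 90.1, 136, 104 and 119 CPM in LSD1-mKO. Of the LSD1-mKO libraries, 4 lay below every WT library and LSD1-mKO replicate 3 lay just above WT replicate 1. The log2 fold change was −0.57 (SE 0.179), with an unadjusted p of 0.00818 and an adjusted p of 0.156 (edgeR).

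*Bnip3* and *Ctsl* did not overlap between the genotypes in Sol. *Bnip3* was at 465, 505 and 555 CPM in WT and at 252, 351, 405, 416 and 395 CPM in LSD1-mKO, which gave −0.50 on the log2 scale (SE 0.177, adjusted p = 0.217, edgeR). *Ctsl* was at 206, 229 and 234 CPM in WT and at 184, 155, 204, 172 and 139.5 CPM in LSD1-mKO, which gave −0.40 (SE 0.151, adjusted p = 0.237, edgeR). For both genes every LSD1-mKO library was below every WT library, with *Ctsl* separated by only 204 against 206 CPM. Of all 13342 genes tested in Sol, 10.8% did not overlap, in either direction.

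*Ulk1* was at 95.5, 86.9 and 126 CPM in WT Sol and at 58.7, 56.8, 106, 71.7 and 85.4 CPM in LSD1-mKO Sol (−0.45, SE 0.211, adjusted p = 0.339, edgeR). All LSD1-mKO libraries but replicate 3 were below every WT library. *Tfeb* was at 47 to 85.2 CPM in WT and 36.8 to 64.3 CPM in LSD1-mKO (−0.38, SE 0.218, adjusted p = 0.437, edgeR), and without WT Sol replicate 2 the value was −0.09. *Gabarapl1* was at 220.5, 103 and 219 CPM in WT Sol and at 179, 194, 291, 194 and 150.5 CPM in LSD1-mKO Sol (0.15, SE 0.266, adjusted p = 0.838, edgeR), with the genotypes overlapping in part: LSD1-mKO replicate 3 was above every WT library and WT replicate 2 below every LSD1-mKO library. *Map1lc3a*, *Gabarap*, *Gabarapl2* and *Sqstm1* had log2 fold changes between −0.08 and 0.10, and *Gabarap* had the narrowest spread of the 10 in LSD1-mKO Sol, 184 to 198 CPM (coefficient of variation 3.03%).

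Of the 10 genes in Sol, 0 passed an adjusted p of 0.05, where 0.967% of all genes did (129 of 13342). Among them 3 (*Map1lc3b*, *Bnip3* and *Ctsl*) had an unadjusted p under 0.05, 30% against 15.5% of all genes. DESeq2 and edgeR's exact test called 0 of them. Limma voom with quality weights, which gives less weight to libraries that fit the model poorly, called 4 as lower: *Map1lc3b* (−0.64, adjusted p = 0.0343), *Ulk1* (−0.71, adjusted p = 0.0445), *Bnip3* (−0.54, adjusted p = 0.0483) and *Ctsl* (−0.46, adjusted p = 0.0488). That setting called 5.47% of all genes. The median log2 fold change was −0.23 over the 10 genes and −0.01 over all genes, with 7 values below and 3 above 0.

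**Figure D4:**
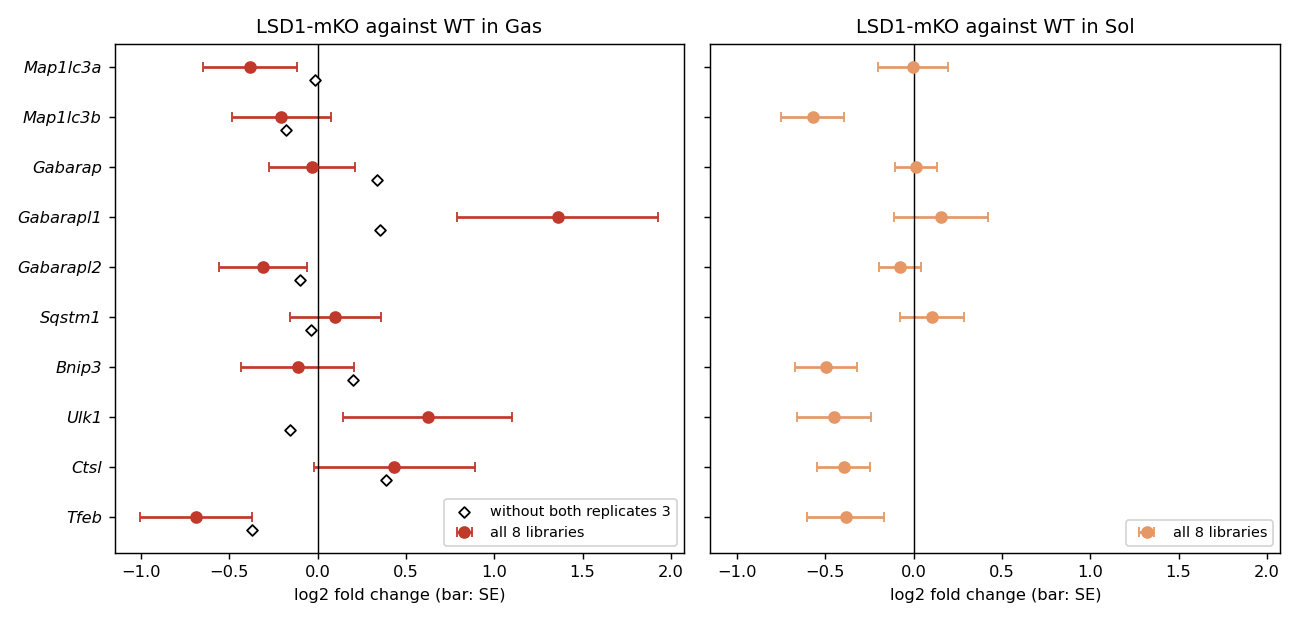
Log2 fold change of LSD1-mKO against WT for each gene in Gas (left) and Sol (right), with bars of 1 SE. Open diamonds in Gas give the value with both libraries numbered 3 left out, which moves Gabarapl1 from 1.36 to 0.35 and Ulk1 from 0.62 to −0.16.

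The difference between the muscles in the genotype effect was tested as an interaction. None of the 10 genes passed: 0 of 13749 genes (0%) had an adjusted p under 0.05, 4.88% had an unadjusted p under 0.05, and 0 of the 10 did. The largest values were those of *Gabarapl1* (1.20, SE 0.659, unadjusted p = 0.0855), *Ulk1* (1.06, SE 0.561, unadjusted p = 0.0753) and *Ctsl* (0.82, SE 0.511, unadjusted p = 0.127), all with an adjusted p of 0.987 (edgeR). With LSD1-mKO Gas replicate 3 left out, they were 0.52 for *Gabarapl1*, 0.49 for *Ulk1* and 0.37 for *Ctsl*. With both Gas libraries numbered 3 left out, they were 0.19 for *Gabarapl1* and 0.28 for *Ulk1*, while *Ctsl* was at 0.77 (unadjusted p = 0.0101, adjusted p = 0.652, edgeR). *Bnip3*, at 0.37 with all libraries, was then at 0.68 (unadjusted p = 0.0281, adjusted p = 0.775, edgeR). DESeq2, the likelihood ratio test and limma voom called 0 of the 10 as well.

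Between the muscles, more of the members differed. In WT, *Map1lc3a* and *Tfeb* were higher in Gas. *Map1lc3a* was at 182, 280.5 and 163 CPM in WT Sol against 339 to 601 CPM in WT Gas, a 2.1-fold difference (log2 1.07, SE 0.273, adjusted p = 0.0128, edgeR). *Tfeb* was at 47, 85.2 and 57.1 CPM in WT Sol against 124 to 199 CPM in WT Gas, 2.52-fold (log2 1.33, SE 0.334, adjusted p = 0.0114, edgeR). *Sqstm1* was 1.66-fold higher in WT Gas without passing the test (log2 0.73, SE 0.253, adjusted p = 0.0569, edgeR), and *Bnip3* was the lowest value, −0.65 (SE 0.307, adjusted p = 0.155, edgeR). Of the 10, 2 were called higher in Gas, where 8.25% of 13749 genes were, and 0 lower, where 8.75% were. In all, 4 (*Map1lc3a*, *Gabarapl2*, *Sqstm1* and *Tfeb*) lay above Sol in every library, against 14.4% of all genes. The calls in WT hang on single libraries: without WT Sol replicate 1, *Map1lc3a* (adjusted p = 0.067) and *Tfeb* (adjusted p = 0.0657) both missed the threshold (edgeR), and without WT Sol replicate 3 they did as well (0.0753 and 0.0538). *Map1lc3a* also missed it without WT Gas replicate 3 (0.0551), while *Bnip3* then passed (log2 −1.11, adjusted p = 0.0131).

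In LSD1-mKO, 4 of the 10 were higher in Gas. *Ctsl* was 2.1-fold higher (log2 1.07, SE 0.315, adjusted p = 0.0202, edgeR), with 223 to 769 CPM in Gas against 139.5 to 204 CPM in Sol, and no overlap. Without LSD1-mKO Gas replicate 3 its log2 fold change was 0.61 and its adjusted p 0.0503. *Tfeb* was 2.01-fold higher (log2 1.01, SE 0.257, adjusted p = 0.00852, edgeR), with Gas replicate 3 at 61.2 CPM below Sol replicate 5 at 64.3 CPM. *Sqstm1* was 1.64-fold higher (log2 0.72, SE 0.196, adjusted p = 0.0136, edgeR), and *Map1lc3a* 1.59-fold (log2 0.67, SE 0.21, adjusted p = 0.0273, edgeR). *Map1lc3a* missed the threshold without LSD1-mKO Gas replicate 1 (adjusted p = 0.0612), Gas replicate 5 (0.0802) or Sol replicate 1 (0.0527, edgeR). *Ulk1* was at log2 0.92 (SE 0.345, adjusted p = 0.0615) and *Gabarapl1* at log2 0.66 (SE 0.403, adjusted p = 0.251, edgeR), and the value of *Gabarapl1* was −0.02 without LSD1-mKO Gas replicate 3. These 4 of 10 compare with 11.6% of all genes called higher in Gas, and 0 of 10 were lower against 12.9%. *Map1lc3a* and *Ctsl* did not overlap, against 9.67% of all genes higher in every Gas library. The median log2 fold change of the 10 genes was 0.22 in WT and 0.67 in LSD1-mKO, against 0.01 and 3.72e-05 over all genes. In LSD1-mKO the replicate numbers paired Gas with Sol libraries, which the fit above did not use. With the number as a block, which paired the WT libraries as well, *Map1lc3a* missed the threshold (log2 0.64, adjusted p = 0.0735) while *Ulk1* (0.70, adjusted p = 0.0488) and *Map1lc3b* (0.50, adjusted p = 0.0348) passed (edgeR). With the mean ribosomal protein level added to the fit, *Map1lc3a* and *Tfeb* were called in neither genotype: adjusted p = 0.242 and 0.188 in WT, and 0.181 and 0.075 in LSD1-mKO (edgeR). In WT that fit called 0 of the 10 higher and 2 lower in Gas, *Gabarap* (log2 −0.76, adjusted p = 0.00371) and *Bnip3* (−1.27, adjusted p = 0.028, edgeR). In LSD1-mKO it called *Gabarap* lower (−0.52, adjusted p = 0.00146) and *Gabarapl1* (1.22, adjusted p = 0.0241) and *Ulk1* (1.21, adjusted p = 0.0222) higher, with *Ctsl* (adjusted p = 0.0478, edgeR) and *Sqstm1* still called. The mean ribosomal protein level was 7.14 to 8.71 in Gas. In Sol it was 6.46 to 6.88, apart from WT Sol replicate 2 at 7.34 (log2 CPM). It thus largely moved with the muscle, and calls lost or gained in that fit cannot be told apart from the muscle difference itself.

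**Figure D5:**
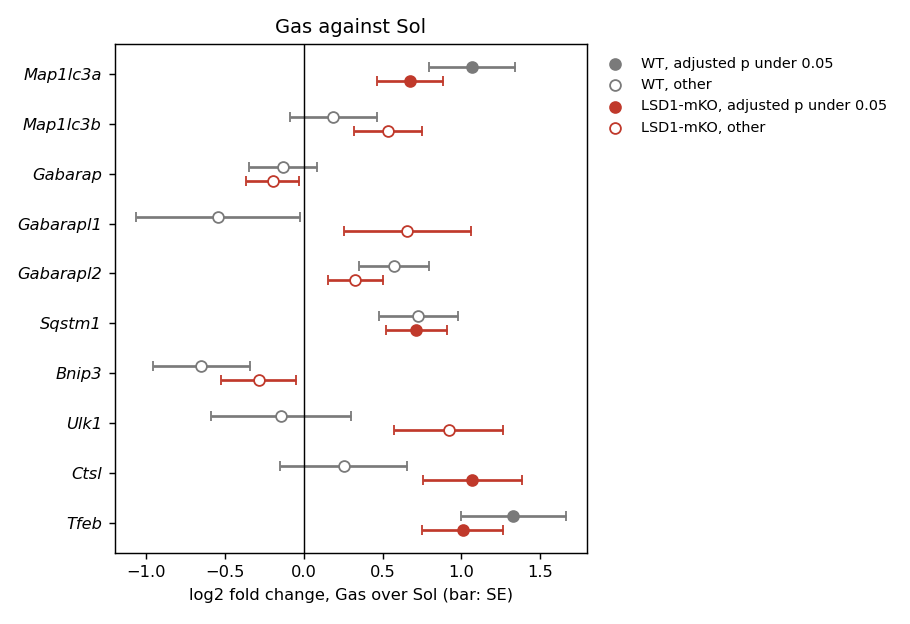
Log2 fold change of Gas over Sol for each gene in WT (gray) and LSD1-mKO (red), with bars of 1 SE. Filled points passed an adjusted p of 0.05 in the fit without a replicate block: Map1lc3a and Tfeb in both genotypes, and Sqstm1 and Ctsl in LSD1-mKO.

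The summed level of the markers of fast fibers differed between the muscles along with these genes (81400 to 145000 CPM in Gas and 12700 to 32500 CPM in Sol), as did that of slow fibers (798 to 2320 and 19600 to 27700 CPM). The macrophage sum was 236 to 452 CPM in Gas and 113 to 279 CPM in Sol. Fiber make-up and other cells move with the muscle, and their part in the values of *Ctsl*, *Tfeb*, *Map1lc3a* and *Sqstm1* was not tested. Within Gas, the fast-fiber sum was 115000 to 145000 CPM in WT and 81400 to 124000 CPM in LSD1-mKO. The log2 fold changes of its 6 genes ran from −1.55 to 0.529 (median −0.556), and those of the 6 slow-fiber genes from 0.0914 to 1.15 (median 0.489). None of them was called between the genotypes, and their part in the members' genotype values was not tested. In bulk tissue, fewer cells of a type and less RNA per cell cannot be told apart.

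Per exon length, *Map1lc3a* and *Sqstm1* led in WT Gas and *Bnip3* in WT Sol. In WT Gas the order ran from *Map1lc3a* (394 ± 128 CPM per kb, SD, n = 3) and *Sqstm1* (314 ± 29.7) over *Bnip3* (184 ± 91.3), *Ctsl* (135 ± 63.9) and *Gabarap* (126 ± 49.3) to *Map1lc3b* (70.7 ± 19.3), *Gabarapl1* (68 ± 29.6) and *Tfeb* (55.6 ± 13.2). *Gabarapl2* (18.4 ± 4.35) and *Ulk1* (17.8 ± 4.32) were lowest. The neighbors in that order whose means lay further apart than the larger of their SDs were *Sqstm1* and *Bnip3*, *Gabarap* and *Map1lc3b*, and *Tfeb* and *Gabarapl2*. In WT Sol, *Bnip3* led with 290 ± 25.5 CPM per kb, above *Sqstm1* (189 ± 13.6) and *Map1lc3a* (188 ± 56.6), which did not differ beyond their spread. In LSD1-mKO Sol, *Bnip3* (207 ± 38.2) and *Sqstm1* (205 ± 43.7, SD, n = 5) did not differ beyond their spread. Of the 75-base windows of *Bnip3*, 46.25% also occur in transcripts of other genes, the largest part among the 10, so its level per length is uncertain.

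The wider pathway was read from 7 lists of other autophagy and lysosome genes. In Gas, 0 of the 126 tested genes on these lists passed between the genotypes, with list medians from −0.23 (V-ATPase, the proton pump of the lysosome) to 0.28 (autophagosome fusion) on the log2 scale. In Sol, where list medians ran from −0.16 to 0.13, 2 of 126 passed, against 0.967% of all genes, both lysosomal hydrolases and both higher in LSD1-mKO. Limma voom with quality weights called 2 of these genes in Gas and 6 in Sol. *Ctsz* (cathepsin Z) was at 22.3 to 30.3 CPM in WT and 39.9 to 76.1 CPM in LSD1-mKO (log2 1.12, SE 0.225, adjusted p = 0.0453, edgeR). *Gusb* (beta-glucuronidase) was at 13.2 to 15.2 CPM in WT and 26.7 to 35.4 CPM in LSD1-mKO (log2 1.10, SE 0.141, adjusted p = 0.0103, edgeR). They were 2 of 35 lysosomal enzyme and membrane genes, whose median was 0.13. In Gas, *Gusb* also did not overlap (11.1 to 14.4 CPM in WT and 16.3 to 44.1 CPM in LSD1-mKO) but was not called. *Ctsz* overlapped in Gas (36.1 to 44 CPM in WT and 33.7 to 54.2 CPM in LSD1-mKO). The summed level of 9 markers of macrophages, cells rich in lysosomes, was 138, 191 and 139 CPM in WT Sol and 279, 180, 198, 248 and 113 CPM in LSD1-mKO Sol. The log2 fold changes of the 9 in Sol ran from −0.107 to 1.95, with a median of 0.415. Of them, 3 were higher at an unadjusted p under 0.05 and 0 were called (edgeR). In Gas the macrophage sum was 267 to 452 CPM in WT and 236 to 291 CPM in LSD1-mKO. The part of macrophages in the values of *Ctsz* and *Gusb* was not tested. Leaving out single Sol libraries gave 0 to 3 calls on these lists.

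Between the muscles, the 7 lists split in both directions: of 126 genes, 8 were higher and 11 lower in Gas in WT, and 17 and 12 in LSD1-mKO. Of all genes, 8.25% were higher and 8.75% lower in WT, and 11.6% and 12.9% in LSD1-mKO. With single libraries left out, the 19 calls in WT became 4 (without WT Sol replicate 1) to 26 (without WT Sol replicate 2). The list medians ran from −0.25 to 0.11 in WT and from −0.12 to 0.06 in LSD1-mKO. Of genes that start autophagy, *Trp53inp2* was lower in Gas in WT (log2 −1.02, adjusted p = 0.0094) and in LSD1-mKO (−1.06, adjusted p = 0.000679), and *Atg101*, part of the ULK1 complex, was higher (1.21, adjusted p = 0.0112, and 0.73, adjusted p = 0.0308). In all 1 was higher and 2 lower in WT, and 5 higher and 2 lower in LSD1-mKO, of 23. Of 15 other receptors, the glycogen receptor *Stbd1* was higher in Gas (2.77, adjusted p = 9.55e-06, and 1.71, adjusted p = 2.72e-05), while the transport adaptor *Fyco1* was lower (−1.82, adjusted p = 0.00667, and −1.25, adjusted p = 0.00859), with 1 higher and 1 lower in WT and 3 and 2 in LSD1-mKO. Of 35 lysosomal genes, *Gaa*, the lysosomal glucosidase for glycogen, was higher (0.84, adjusted p = 0.0107, and 1.11, adjusted p = 0.000102) and the membrane gene *Lamp2* lower (−0.80, adjusted p = 0.0112, and −0.58, adjusted p = 0.0109), with 2 higher and 3 lower in WT and 4 and 4 in LSD1-mKO. Of 16 regulators, *Foxo1* was higher (1.30, adjusted p = 0.0392, and 1.76, adjusted p = 0.000762), *Rptor* of mTORC1 was lower in both genotypes (−0.99, adjusted p = 0.0139, and −0.56, adjusted p = 0.0487), and *Mtor* was lower in WT (−1.03, adjusted p = 0.0351, all by edgeR), with 1 higher and 3 lower in WT and 2 and 2 in LSD1-mKO. Of 14 V-ATPase genes, 2 were higher and 1 lower in WT and 1 and 1 in LSD1-mKO, while of 10 conjugation genes 1 (*Atg10*, −0.89) was lower in WT and 0 differed in LSD1-mKO. Of 13 fusion genes, *Vps18* was higher in both genotypes (0.76 and 0.73), the only call in WT, with 2 higher and 1 lower in LSD1-mKO.

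Over the 16 libraries, the genes whose log2 CPM ran most like that of *Gabarapl1*, among 10766 others with a mean of at least 50 reads, were *Acacb* (Spearman's rho 0.865), *Zfp236* (0.859), *Garem* (0.847), *Naa25* (0.844) and *Dph1* (0.841). *Acacb*, an acetyl-CoA carboxylase of muscle, was at 306 to 519 CPM in WT Gas and 519 to 828 CPM in LSD1-mKO Gas. Of the other members, *Ulk1* was most like it (rho 0.412, Pearson's r 0.72), followed by *Ctsl* (rho 0.235), while *Tfeb* ran against it (rho −0.506). Without LSD1-mKO Gas replicate 3, rho was 0.286 for *Ulk1* and 0.0714 for *Ctsl*, but −0.504 for *Tfeb* and 0.811 to 0.836 for the 5 genes most alike. These are descriptions: the libraries of a muscle were counted together, and a high *Gabarapl1* level in a single library enters every value over the 16 libraries.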

How the data were processed

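Poly(A) RNA of Gas and Sol was read as 75-base single ends in 16 libraries. According to the labels and file headers, the authors aligned reads with STAR to mm10 (STAR version not given in the sources used here) and counted them with featureCounts 1.5.2 on UCSC gene models. The deposited values are raw counts per gene, not normalized, and every column was matched to a sample (0 left over). The header names no strand option, and by that tool's default reads with several alignments or overlapping several genes were left out. Tables of the authors' own fold changes and p-values were not used.

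Counts were tested with edgeR 4.0.16, the quasi-likelihood fit, TMM scaling, a minimum count of 10 in filterByExpr and Benjamini-Hochberg adjustment at 0.05. Genotypes were compared within a muscle, and muscles and the interaction in a fit over all 16 libraries. The alternatives were RLE scaling, no filter, DESeq2 1.42.0, the exact or likelihood ratio test, limma 3.58.1 voom with quality weights, the replicate number as a block, each library left out, and 2 added after seeing the data: both Gas libraries numbered 3 left out, and a ribosomal protein covariate over 77 genes. The fits were tested on simulated data. Depth limits precision: 3 reads are 0.103 to 0.34 CPM. The smallest difference between libraries of a group was a chi-square of 17.8 per gene, above sampling noise, so none was counted as a duplicate. Nothing in the labels says that numbers mark mice, but same-numbered LSD1-mKO Gas and Sol libraries deviated together from their group means (correlations 0.212 to 0.359 in 5 pairs, each Gas library closest to its own number). The main fits between the muscles and for the interaction used no block, so their p-values leave this pairing out. Only the fit with the replicate block used it, and that fit also paired same-numbered WT libraries, whose correlations were −0.515 to 0.123.

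Members and lists were chosen with earlier results of these data known. All 10 members are named, other listed genes by the 3 highest and 3 lowest calls of a list, of which some are given, and *Gabarapl1* neighbors by the 5 highest rank correlations. Exon lengths and overlaps are from GENCODE M21 on GRCm38. Whether replicates are separate mice is not stated in the labels. The p-values set group differences against the spread between these samples, which need not be the spread between mice.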

Additional observations from a re-analysis of the deposited data

Results flagged for a closer look

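In the LSD1-mKO groups, each with 5 libraries, 20 gene and group combinations were looked at for a library far from the rest, and 4 had one, all in Gas. About 1 of 20 would be met by chance, a rate that takes no account of libraries standing apart over many genes. Most of those found were LSD1-mKO Gas replicate 3, the highest Gas library for 19.2% and the lowest for 17.3% of 13040 genes. The share of all genes with such a library was not counted, so the count cannot be read as particular to these members. LSD1-mKO Gas replicate 3 was far above the others for *Gabarapl1*, where its gap to the next library took 0.932 of the group's range, for *Ulk1* (0.814) and for *Ctsl* (0.811). LSD1-mKO Gas replicate 5 was far above the others for *Gabarapl2* (0.877), at 38.3 CPM against 20.3 to 22.5 CPM. In LSD1-mKO Sol no member passed the cutoff used, a gap of 0.71 of the range. *Gabarapl1* came near it there, at 0.689 for LSD1-mKO Sol replicate 3. The WT groups of 3 were too small for this measure. The part of drug response or other cells in these values was not tested.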

How the results depend on the processing

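Calls among the 10 genes between the genotypes were 0 in both muscles under every alternative but limma voom with quality weights in Sol, which called 4. The count over all genes depended on the tool. In Gas it was 4, and 10 with no filter, 132 with DESeq2, 103 with the exact test, 340 with voom, 9 without both libraries numbered 3 and 1 to 7 with single libraries left out. In Sol it was 129, and 336, 605, 558 and 730 in the same order, 412 with the replicate block, 298 with the ribosomal protein covariate and 11 to 228 with single libraries left out (lowest without WT Sol replicate 3, highest without LSD1-mKO Sol replicate 5). For the interaction it was 0, and 21 with DESeq2, 14 with the likelihood ratio test, 103 with voom, 1 with the replicate block and 0 to 1 with single libraries left out. Between the muscles voom called 6 of the 10 genes and 5599 genes in WT, and 7 and 5374 in LSD1-mKO. Single libraries left out gave 0 to 3 of the 10 and 1132 to 2839 genes in WT, lowest in both without WT Sol replicate 1. The cause of these differences was not tested.

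Of the alternatives' log2 fold changes of single members, 17 of 160 in Gas and 14 of 150 in Sol changed sign. For LSD1-mKO against WT in Gas, *Gabarap* became 0.0052 with no filter, 0.17 with voom, 0.29 with the ribosomal protein covariate and 0.33 without both libraries numbered 3, *Bnip3* became 0.13, 0.26 and 0.20 with the last 3, *Sqstm1* −0.0605 with voom and −0.0369 without both libraries, and *Ulk1* −0.16 without both. Leaving out single libraries gave −0.18 to 0.34 for *Gabarap*, −0.29 to 0.38 for *Bnip3*, −0.0653 to 0.19 for *Sqstm1*, −0.41 to 0.0416 for *Map1lc3b* and −0.0443 to 0.88 for *Ctsl*. In Sol, *Map1lc3a* became 0.02 with no filter, 0.28 with voom, 0.0324 with the replicate block and 0.0232 with the covariate, *Gabarapl1* −0.11 and *Sqstm1* −0.0276 with voom, and single libraries left out gave −0.14 to 0.28 for *Map1lc3a*, −0.017 to 0.0862 for *Gabarap*, −0.12 to 0.32 for *Gabarapl1* and −0.0356 to 0.16 for *Sqstm1*.

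For Gas against Sol in WT, *Map1lc3b* became −0.0231 with voom, −0.21 with the covariate and −0.0303 without both libraries, *Ctsl* −0.26 with voom and −0.16 without both, *Gabarapl1* 0.55 with the covariate, and *Ulk1* 0.44 with the covariate and 0.0639 without both. Single libraries left out gave −0.0305 to 0.30 for *Map1lc3b*, −0.48 to 0.0089 for *Gabarap*, −0.16 to 0.51 for *Ctsl* and −0.29 to 0.0637 for *Ulk1*. In LSD1-mKO, *Gabarapl1* became −0.0169 without both, and −0.0219 to 0.85 with single libraries left out. For the interaction, *Gabarap* became 0.0939 with voom, 0.24 with the covariate and 0.30 without both (−0.21 to 0.30 with single libraries left out), and *Sqstm1* 0.0273 with no filter and 0.011 with the covariate (−0.16 to 0.15).

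Outside LSD1-mKO between the muscles the numbers did not pair the libraries. Same-numbered WT libraries of the muscles had correlations of −0.515 to 0.123, and those of the genotypes −0.16 to 0.307 in Gas and −0.00616 to 0.128 in Sol. With the replicate block, 0 of the 10 genes were called between the genotypes in either muscle and 3 between the muscles in WT, where *Sqstm1* was added (adjusted p = 0.0361, edgeR).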
